A study of Mus musculus with 14 samples.

Results

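The immunity-related GTPases (IRGs) and their giant relative Gvin1 were followed in 7 mouse genes, Irgm1, Irgm2, Igtp, Iigp1, Tgtp1, Tgtp2 and Gvin1, which were picked by name from the 51789 genes of a tumour count table. All 7 had reads, and all 7 were among the 17294 genes that passed the filter on low counts. RNA of bulk tumour was sequenced in 14 libraries made with the QuantSeq kit, which sequences polyadenylated RNA from its 3' end. The hosts were labelled NGS mouse, with 3 vehicle and 3 ACSS2i libraries, and C57BI/6 mouse (written C57BI6 here), with 4 vehicle and 4 ACSS2i libraries. ACSS2i is an inhibitor of ACSS2, an enzyme that turns acetate into acetyl-CoA outside the mitochondria, and the series is about such inhibitors as metabolic and immune modulators in triple-negative breast cancer. The meaning of the strain name NGS, the tumour line, the animals' age, and the dose and length of treatment are not given in the sources used here. A design line speaks of different Bmal1 status, but no label ties a status to a library.

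IRGs are GTPases that mouse cells make when interferon, above all interferon gamma, signals through its receptors to transcription factors in the nucleus. The effector IRGs, called GKS proteins after residues in their nucleotide-binding loop, gather on the vacuoles that enclose intracellular pathogens such as Toxoplasma gondii and break them open. The regulator IRGs, called GMS proteins, sit on the cell's own membranes and hold the effectors inactive there. Guanylate-binding proteins often act on the same vacuoles, and the Atg8 conjugation machinery of autophagy helps to steer both families to their targets.

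Library totals ran from 2846161 to 4701101 counts in the NGS host and from 17645504 to 20344809 in the C57BI6 host, so that depth and host could not be told apart. Levels are given as CPM, the counts scaled to a common library total with no correction for transcript length. Nothing in the labels says that libraries of a group came from separate animals, and p-values measure only the spread between these libraries. The first principal component, 60.5% of the variance, separated the hosts, and the second, 11.1%, set NGS ACSS2i replicate 2 apart. Summed levels of 5 skeletal muscle genes ran from 1.02 to 5185 CPM between libraries and were over 200 CPM in 7 of the 14. Epithelial markers summed to between 239 and 748 CPM and macrophage markers to between 1345 and 2850 CPM. In bulk tumour, more cells that express a gene and more RNA of it per cell cannot be told apart.

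Promoter sequence was available for 5 of the 7 genes, from RefSeq on GRCm38.p6, the assembly that mm10 names. The 250 bases before each start site are shown 5′ to 3′ on the gene's strand, because 4 of the 5 share a close pair of interferon motifs. Capitals mark the gamma-activated site TTCNNNGAA, a motif of interferon gamma responses, and the interferon-stimulated response element, a pair of GAAA boxes with any 2 bases between them, to which IRF factors bind.
Igtp, chr11:58199306-58199555, plus strand: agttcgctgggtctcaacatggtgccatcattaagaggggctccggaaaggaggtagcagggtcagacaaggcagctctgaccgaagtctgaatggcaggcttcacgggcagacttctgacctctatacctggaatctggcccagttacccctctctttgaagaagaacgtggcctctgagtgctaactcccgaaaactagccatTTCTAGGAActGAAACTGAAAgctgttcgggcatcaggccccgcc
Irgm2, chr11:58214727-58214976, plus strand: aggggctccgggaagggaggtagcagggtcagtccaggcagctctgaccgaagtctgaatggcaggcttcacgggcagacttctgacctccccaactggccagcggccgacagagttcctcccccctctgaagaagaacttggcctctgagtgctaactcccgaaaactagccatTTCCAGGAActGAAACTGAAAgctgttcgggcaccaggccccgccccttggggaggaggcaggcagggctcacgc
Tgtp1, chr11:48992247-48992496, minus strand: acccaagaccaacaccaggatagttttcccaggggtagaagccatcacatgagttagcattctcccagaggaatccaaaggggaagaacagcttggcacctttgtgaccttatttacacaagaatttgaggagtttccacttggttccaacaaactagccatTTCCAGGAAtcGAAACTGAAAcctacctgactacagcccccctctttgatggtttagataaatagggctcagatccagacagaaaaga
Tgtp2, chr11:49064213-49064462, minus strand: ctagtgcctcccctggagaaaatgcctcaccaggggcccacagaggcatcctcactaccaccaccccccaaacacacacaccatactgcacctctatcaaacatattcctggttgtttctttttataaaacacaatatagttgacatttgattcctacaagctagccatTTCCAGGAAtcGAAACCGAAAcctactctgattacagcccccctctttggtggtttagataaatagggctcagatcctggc
Irgm1, chr11:48871421-48871670, minus strand: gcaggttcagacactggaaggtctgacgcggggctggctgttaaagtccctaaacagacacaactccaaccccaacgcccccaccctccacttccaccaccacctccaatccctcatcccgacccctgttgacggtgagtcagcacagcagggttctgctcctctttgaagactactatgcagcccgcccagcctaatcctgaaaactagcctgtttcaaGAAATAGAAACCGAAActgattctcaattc

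Both motifs were searched on both strands of 32851 RefSeq promoters of the same length. The gamma-activated site was found in 7.02% of them, the response element in 2.98% and both in 0.332%. In Igtp, Irgm2, Tgtp1 and Tgtp2 the gamma-activated site stood 2 bases ahead of the response element. That spacing was set after the matches were seen. It occurred in 0.0152% of the promoters, those of 5 of 27025 genes. The fifth gene was Gm12185, a predicted IRG, at a separate RefSeq window (chr11:48927183-48927432, minus strand); its GENCODE model overlaps that of Tgtp1 on the same strand and shares 223 exon bases with it. The paired motif began 45 bases before the start site in Igtp, 75 in Irgm2, 88 in Tgtp1 and 81 in Tgtp2. Irgm1 held a pair of overlapping response elements within 30 bases of its start and no gamma-activated site in this window. Over the whole windows Igtp and Irgm2 were identical at 69.9% of aligned bases, and Tgtp1 and Tgtp2 at 65.3%. The RefSeq start sites of Irgm1, Irgm2 and Tgtp1 lie inside the gene bodies that GENCODE annotates. These are matches of letters, and binding was not measured.

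Across the 4 comparisons, every fitted difference of the 7 genes was positive in edgeR, higher with ACSS2i in each host and higher in C57BI6 than in NGS under each treatment. Of all genes tested, 47.3% in C57BI6 and 45.9% in NGS had a positive treatment difference. For host, 51% were positive in vehicle and 53.4% with ACSS2i. Of the other fits of all 14 libraries, limma voom alone gave a negative value for a member, Tgtp2 between hosts in vehicle. In C57BI6 tumours 1 of the 7 genes, Irgm2, rose with ACSS2i at an edgeR adjusted p under 0.05, against 0.26% of all genes tested. In NGS tumours 3 of 7 rose, Igtp, Iigp1 and Gvin1, against 1.32% of all genes. The median log2 fold change of the 7 was 1.00 in C57BI6 and 1.78 in NGS, beside -0.01 for all genes in both. In vehicle tumours 6 of 7 were higher in C57BI6 than in NGS (18.8% of all genes), and in ACSS2i tumours 3 of 7 were (23.1% of all genes), with median differences of 1.68 and 1.24 beside 0.01 and 0.06. The 2 host comparisons each share their libraries with the treatment comparisons.

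**Figure D1:**
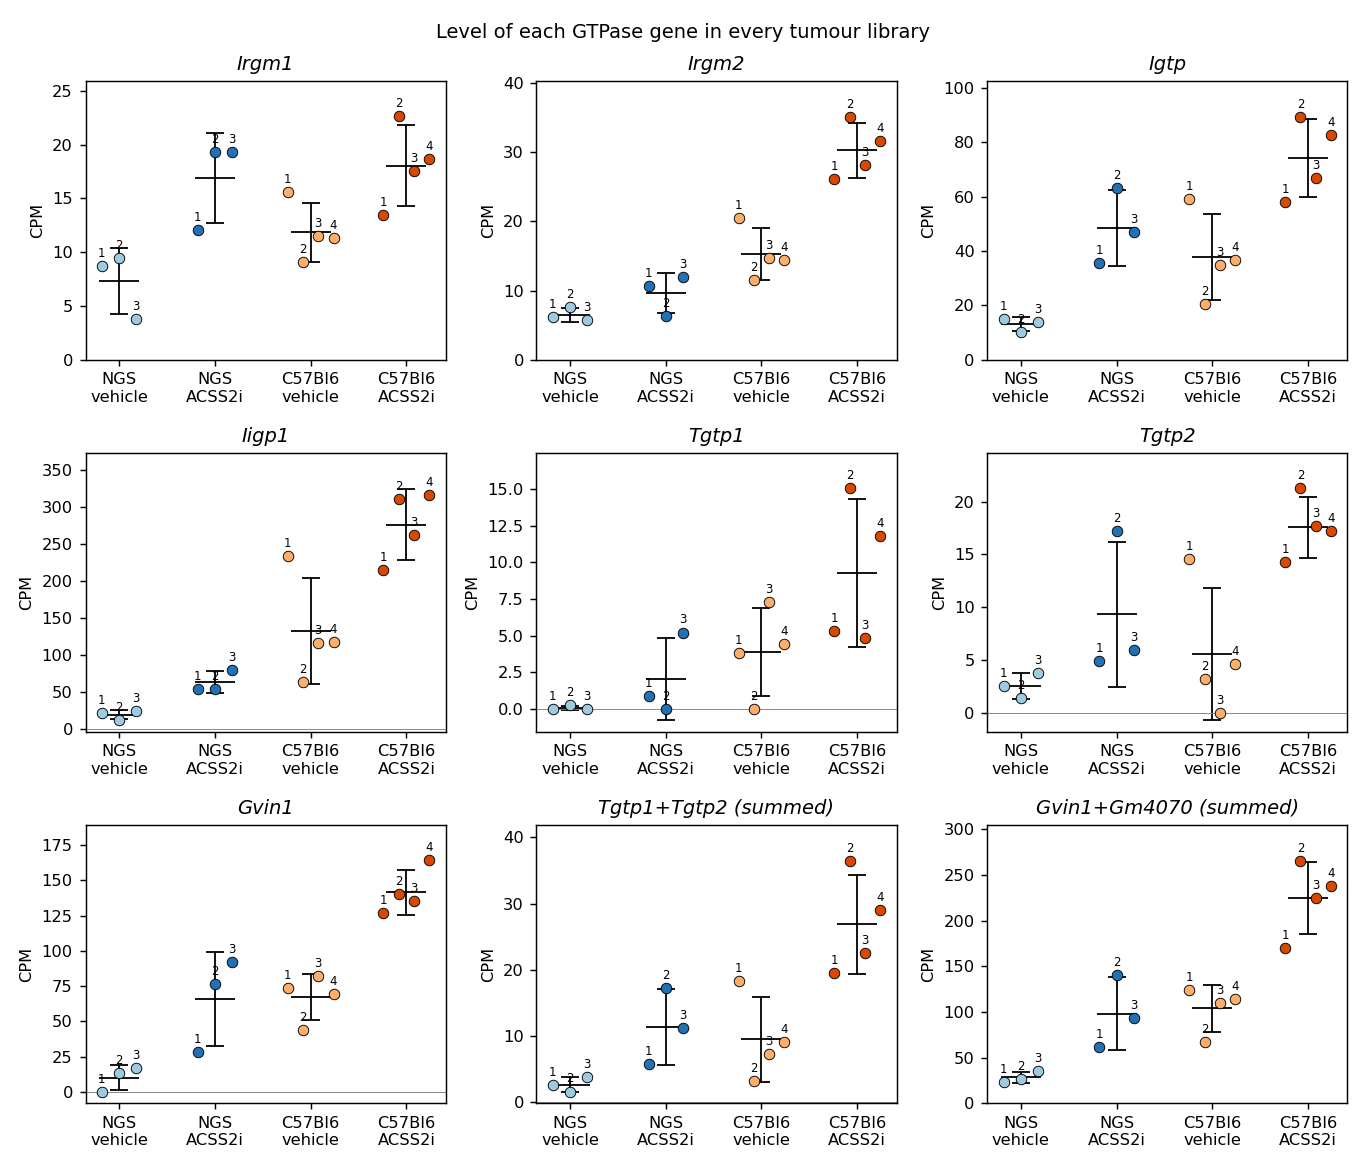
Level in CPM (y axis) of each of the 7 GTPase genes and of 2 sums of near copies in every library, with the replicate number beside each point, by host and treatment (x axis). Horizontal lines show the group mean and bars 1 SD (n = 3 in NGS, n = 4 in C57BI6). In Irgm2 the 4 C57BI6 ACSS2i libraries lie between 26.2 and 35.1 CPM, above the 11.5 to 20.5 CPM of the vehicle libraries.

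Irgm1 (ENSMUSG00000046879, mm10 chr11:48861968-48871683, minus strand, protein-coding), a GMS regulator found on Golgi and lysosomal membranes, was at 8.72, 9.45 and 3.80 CPM in the NGS vehicle libraries and at 12.04, 19.3 and 19.3 CPM in the NGS ACSS2i libraries. The NGS groups did not overlap. In C57BI6 it was at 15.6, 9.06, 11.5 and 11.3 CPM in vehicle and at 13.5, 22.6, 17.5 and 18.6 CPM in ACSS2i, where the lowest treated library lay under the highest vehicle library. The treatment difference did not pass in either host, with log2 fold changes (± SE) of 1.15 ± 0.32 in NGS (edgeR adjusted p = 0.0624) and 0.54 ± 0.23 in C57BI6 (adjusted p = 0.545). Without NGS ACSS2i replicate 1 the NGS difference passed (adjusted p = 0.0234), as it did with the DESeq2 test (0.00708). In vehicle Irgm1 was higher in C57BI6 than in NGS by 0.84 ± 0.29 (adjusted p = 0.0376), a call lost without NGS vehicle replicate 3 or C57BI6 vehicle replicate 1, 3 or 4 (up to 0.15), and with limma voom (0.12), with the vehicle libraries alone (0.055), with C57BI6 thinned to the NGS depth (0.0959) and without the 3 muscle-rich C57BI6 libraries (0.12). With ACSS2i the hosts differed by 0.23 ± 0.27 (adjusted p = 0.532). Of the 7 genes Irgm1 had the smallest fitted host difference under both treatments.

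Irgm2 (ENSMUSG00000069874, chr11:58199618-58222782, plus strand, protein-coding), another GMS regulator, was at 20.5, 11.5, 14.7 and 14.4 CPM in the C57BI6 vehicle libraries and at 26.2, 35.1, 28.1 and 31.6 CPM in the ACSS2i libraries. Every treated library stood above every vehicle library. Its mean of 15.3 ± 3.79 CPM (SD, n = 4) in vehicle rose to 30.3 ± 3.96 CPM (SD, n = 4), which edgeR put at 0.92 ± 0.18 on the log2 scale (adjusted p = 0.0468). In NGS it was at 6.17, 7.60 and 5.70 CPM in vehicle and 10.6, 6.32 and 11.9 CPM in ACSS2i, and the groups overlapped through NGS ACSS2i replicate 2 (0.54 ± 0.27, adjusted p = 0.25). The C57BI6 call lies close to the threshold. It was lost without NGS vehicle replicate 2 or 3, NGS ACSS2i replicate 3, C57BI6 vehicle replicate 2, 3 or 4, or C57BI6 ACSS2i replicate 1, 2, 3 or 4 (up to an adjusted p of 0.214), and without the 3 C57BI6 libraries richest in muscle genes, where the log2 fold change was 1.23 (0.0755). It was also lost with C57BI6 thinned to the NGS depth (0.0661). Irgm2 was higher in C57BI6 than in NGS by 1.38 ± 0.23 in vehicle (adjusted p = 0.000377) and by 1.76 ± 0.23 with ACSS2i (adjusted p = 3.13e-05), and the hosts did not overlap under vehicle or under ACSS2i. Both host calls held when any 1 of the 14 libraries was left out.

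Igtp (also called Irgm3; ENSMUSG00000078853, chr11:58199556-58207591, plus strand, protein-coding), the GMS regulator of the endoplasmic reticulum and lipid droplets, was at 15.1, 10.1 and 13.8 CPM in NGS vehicle and at 35.6, 63.2 and 46.8 CPM in NGS ACSS2i. Every treated NGS library stood above every vehicle library. The rise, from 13.0 ± 2.57 to 48.6 ± 13.9 CPM (n = 3 each), was 1.85 ± 0.335 on the log2 scale (edgeR adjusted p = 0.0149). In C57BI6 it was at 59.1, 20.6, 35.0 and 36.6 CPM in vehicle and 58.1, 89.2, 66.8 and 82.5 CPM in ACSS2i. The groups met only where C57BI6 vehicle replicate 1 lay just above ACSS2i replicate 1, and the difference of 0.91 ± 0.25 did not pass (adjusted p = 0.18). Without that vehicle library it passed (0.0454), as it did with DESeq2 (0.0321) and limma voom (0.0388). The NGS call was lost without NGS ACSS2i replicate 2 (0.0547), in a fit of the NGS libraries alone (0.0522) and with limma voom (0.151). Igtp was higher in C57BI6 by 1.68 ± 0.31 in vehicle (adjusted p = 0.000837) and by 0.74 ± 0.28 with ACSS2i (adjusted p = 0.049). The vehicle call held without any 1 library, and the ACSS2i call was lost without NGS vehicle replicate 1, 2 or 3, NGS ACSS2i replicate 1 or 3, C57BI6 vehicle replicate 3 or 4, or C57BI6 ACSS2i replicate 2, 3 or 4 (up to 0.165), and with the size factors of DESeq2 (0.0575) or limma voom (0.0682). Igtp and Irgm2 share 162 exon bases on the same strand, near the start of Igtp, but no stretch of 50 bases within the last 400 of their transcripts, the end that QuantSeq reads.

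Iigp1 (also called Irga6; ENSMUSG00000054072, chromosome 18, plus strand, protein-coding), a GKS effector and among the first IRGs to load onto the Toxoplasma vacuole, was at 20.9, 11.5 and 23.8 CPM in NGS vehicle and at 54.2, 54.1 and 79.8 CPM in NGS ACSS2i. The groups stood clear of each other. It rose from 18.7 ± 6.40 to 62.7 ± 14.8 CPM, a log2 fold change of 1.71 ± 0.39 (edgeR adjusted p = 0.0326). In C57BI6 it was at 233, 62.9, 116 and 117 CPM in vehicle and 214, 311, 263 and 316 CPM in ACSS2i. Here again C57BI6 vehicle replicate 1 lay above the lowest treated library, and the difference of 1.00 ± 0.30 did not pass (adjusted p = 0.246), though it did without that vehicle library (0.035), with DESeq2 (0.0463) and with limma voom (0.0485). The NGS call was lost without NGS vehicle replicate 1, 2 or 3 or NGS ACSS2i replicate 2 or 3 (up to 0.0947), with the NGS libraries alone (0.08) and with limma voom (0.187). Its host difference was larger than those of Irgm1, Irgm2, Igtp and Gvin1 under both treatments, at 2.97 ± 0.38 in vehicle (adjusted p = 2.89e-05) and 2.26 ± 0.35 with ACSS2i (adjusted p = 0.000174). The hosts did not overlap under either treatment, and both calls held without any 1 library.

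Tgtp1 (ENSMUSG00000078922, chr11:48985327-48994172, minus strand) and Tgtp2 (ENSMUSG00000078921, chr11:49057194-49064206, minus strand), both protein-coding, make the GKS effector Irgb6 and are near copies. Their annotated transcripts were identical at 99.3% of bases, and the last 1040 bases were the same in both, so that a read from the 3' end cannot be placed on either by its letters. The deposited counts split accordingly. Tgtp1 took 0% of the 61 counts of both genes in C57BI6 vehicle replicate 2 (95% Wilson interval up to 5.92%) and 100% of 140 in C57BI6 vehicle replicate 3 (from 97.3%), with 20.7 to 48.8% in the other 6 C57BI6 libraries. The value of either copy taken alone is therefore uncertain. The intervals cover counting error only.

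By itself Tgtp1 had 1 count in the 3 NGS vehicle libraries, in replicate 2, and 3, 0 and 21 counts in NGS ACSS2i. The ratio of these rates was 30.7, with an exact counting interval of 5 to 1.26e+03, and the edgeR test did not pass (adjusted p = 0.248). In C57BI6 Tgtp1 was at 3.80, 0, 7.29 and 4.42 CPM in vehicle and at 5.33, 15.1, 4.81 and 11.8 CPM with ACSS2i, overlapping groups (1.175 ± 0.78, adjusted p = 0.83). The 289 counts in C57BI6 vehicle gave a rate 51.4 times that of NGS vehicle (exact counting interval 9.16 to 2.04e+03), a host difference that passed (adjusted p = 0.0333) but not without NGS vehicle replicate 1, 2 or 3 or C57BI6 vehicle replicate 3 or 4 (up to 0.104), nor with limma voom (0.584), without the 3 muscle-rich C57BI6 libraries (0.0621) or without both NGS libraries numbered 1 (0.113). With ACSS2i the hosts differed by 2.20 ± 1.05 (adjusted p = 0.108), which passed without NGS ACSS2i replicate 3 (0.0463) or C57BI6 vehicle replicate 2 (0.0246).

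In the NGS host Tgtp2 was at 2.55, 1.38 and 3.80 CPM with vehicle and at 4.88, 17.2 and 5.95 CPM with ACSS2i. In the C57BI6 host it was at 14.5, 3.23, 0 and 4.65 CPM with vehicle and at 14.2, 21.3, 17.7 and 17.2 CPM with ACSS2i. The NGS groups did not overlap, and the C57BI6 groups overlapped through vehicle replicate 1. None of its 4 differences passed, with log2 values of 1.78 ± 1.085 for treatment in NGS (adjusted p = 0.354), 1.605 ± 0.71 in C57BI6 (0.563), 1.25 ± 0.98 for host in vehicle (0.353) and 1.08 ± 0.84 for host with ACSS2i (0.324). With limma voom the host value in vehicle had the other sign, -0.25 (0.934).

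Summing the copies removes the split. Tgtp1 and Tgtp2 together were at 2.55, 1.61 and 3.80 CPM with vehicle and 5.74, 17.2 and 11.2 CPM with ACSS2i in NGS, and at 18.3, 3.23, 7.29 and 9.07 CPM with vehicle and 19.6, 36.4, 22.5 and 29.0 CPM with ACSS2i in C57BI6. In both hosts every treated library stood above every vehicle library. The treatment differences did not pass, at 2.04 ± 0.635 in NGS (edgeR adjusted p = 0.0874) and 1.44 ± 0.40 in C57BI6 (0.178). The host differences of the sum did pass, at 1.98 ± 0.57 in vehicle (0.016) and 1.39 ± 0.48 with ACSS2i (0.0316).

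Gvin1 (ENSMUSG00000045868, chr7:106156556-106215326, minus strand, protein-coding), a very large interferon-inducible GTPase whose role in the cell is less well known, has a near copy in Gm4070 (chr7:105895139-105953967, minus strand). Their transcripts were identical at 99.9% of bases and over the last 1630. Gvin1 took 0% of the 111 counts of both in NGS vehicle replicate 1 (Wilson interval up to 3.35%) and 98.9% of the 377 in NGS ACSS2i replicate 3, and 46.1 to 74.6% in the other 12 libraries. It was at 0, 13.4 and 17.1 CPM in NGS vehicle and at 28.4, 76.2 and 92.4 CPM in NGS ACSS2i. The NGS groups did not overlap, and the log2 fold change was 2.67 ± 0.645 (edgeR adjusted p = 0.0431). That call was lost with any 1 of 12 libraries left out, all but replicate 1 of each NGS group (up to 0.102), without the 3 muscle-rich C57BI6 libraries (0.101), with the NGS libraries alone (0.261) and with limma voom (0.12).

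In C57BI6 Gvin1 was at 73.7, 43.7, 82.0 and 69.4 CPM in vehicle and at 127, 141, 135 and 164 CPM with ACSS2i. The gap between the groups was wide, 82.0 against 127 CPM, yet the difference of 1.01 ± 0.47 did not pass in the model of all libraries (adjusted p = 0.621). It passed with the C57BI6 libraries alone (0.018) and without both NGS libraries numbered 1 (0.0217), a setting chosen after the data were seen. Gvin1 was higher in C57BI6 by 2.89 ± 0.62 in vehicle (adjusted p = 0.00236), a call that held without any 1 library, and by 1.24 ± 0.53 with ACSS2i (adjusted p = 0.0773), which passed without NGS vehicle replicate 1 (0.00545).

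The sum of Gvin1 and Gm4070, a setting that was not planned beforehand, does not depend on that split. It was at 23.6, 26.7 and 35.7 CPM in NGS vehicle and 61.7, 140 and 93.4 CPM in NGS ACSS2i, and it rose by 1.735 ± 0.29 on the log2 scale (edgeR adjusted p = 0.0106). In C57BI6 it was at 125, 66.9, 110 and 115 CPM in vehicle and 171, 265, 225 and 238 CPM with ACSS2i, a difference of 1.05 ± 0.23 that did not pass (0.0794). Treated and vehicle libraries did not overlap in either host. The sum was higher in C57BI6 by 2.01 ± 0.28 in vehicle (6.45e-05) and 1.32 ± 0.26 with ACSS2i (0.00117).

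**Figure D2:**
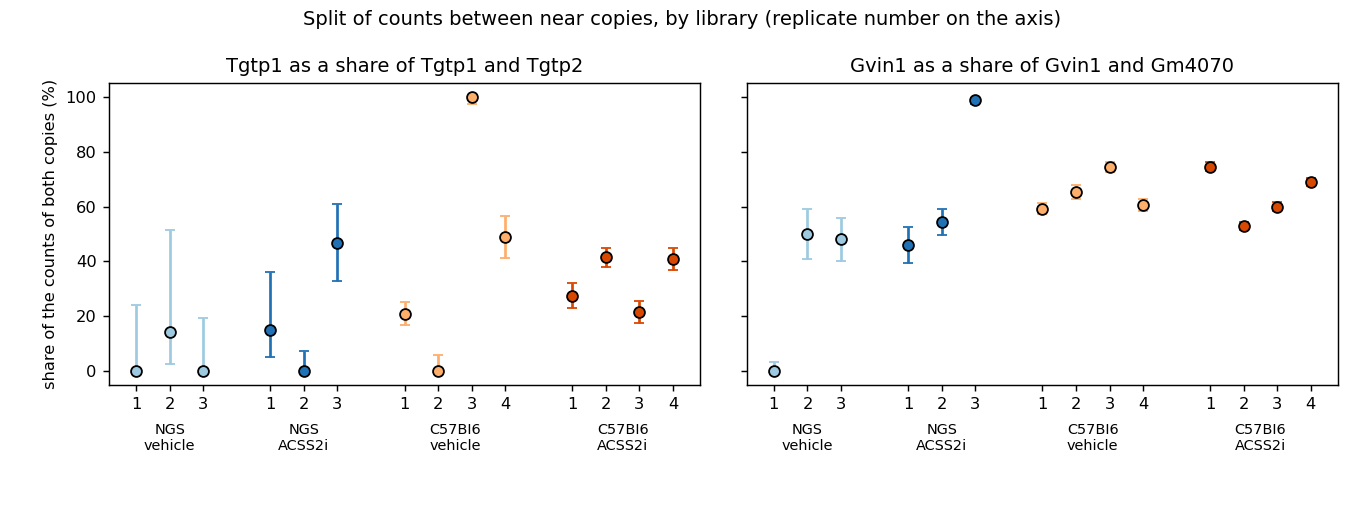
Share of the counts of both copies (y axis, %) that the deposited table gave to Tgtp1 (left) and Gvin1 (right) in each library (x axis, replicate number by group), with 95% Wilson intervals. Tgtp1 goes from 0% in C57BI6 vehicle replicate 2 to 100% in replicate 3, and Gvin1 from 0% in NGS vehicle replicate 1 to 98.9% in NGS ACSS2i replicate 3.

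Counted over the 7 genes, treated and vehicle libraries did not overlap for 2 in C57BI6, Irgm2 and Gvin1 (7.05% of all genes were separated upward), and for 5 in NGS, all but Irgm2 and Tgtp1 (10.2% of all genes). C57BI6 stood clear above NGS for 4 in vehicle, Irgm2, Igtp, Iigp1 and Gvin1 (17.5% of all genes), and for 3 with ACSS2i, Irgm2, Iigp1 and Gvin1 (21.7%). None of the 7 passed the test of the difference between the hosts' treatment effects, C57BI6 minus NGS, in edgeR, DESeq2 or limma voom, where 3 of all genes, 0.0173%, passed in edgeR. Only Igtp had an unadjusted p under 0.05 there (13.8% of all genes did), with a difference of -0.94 ± 0.415 (edgeR adjusted p = 0.338). The differences for the other genes on ample counts were -1.655 ± 0.79 for Gvin1, -0.705 ± 0.48 for Iigp1, -0.61 ± 0.39 for Irgm1 and 0.38 ± 0.32 for Irgm2 (adjusted p from 0.371 to 0.625). For the sums it was -0.59 ± 0.75 for Tgtp1 with Tgtp2 (0.77) and -0.69 ± 0.37 for Gvin1 with Gm4070 (0.412). Irgm2 passed in C57BI6 and not in NGS, and Igtp, Iigp1 and Gvin1 the other way round, but these tests do not show that the hosts differed in response.

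**Figure D3:**
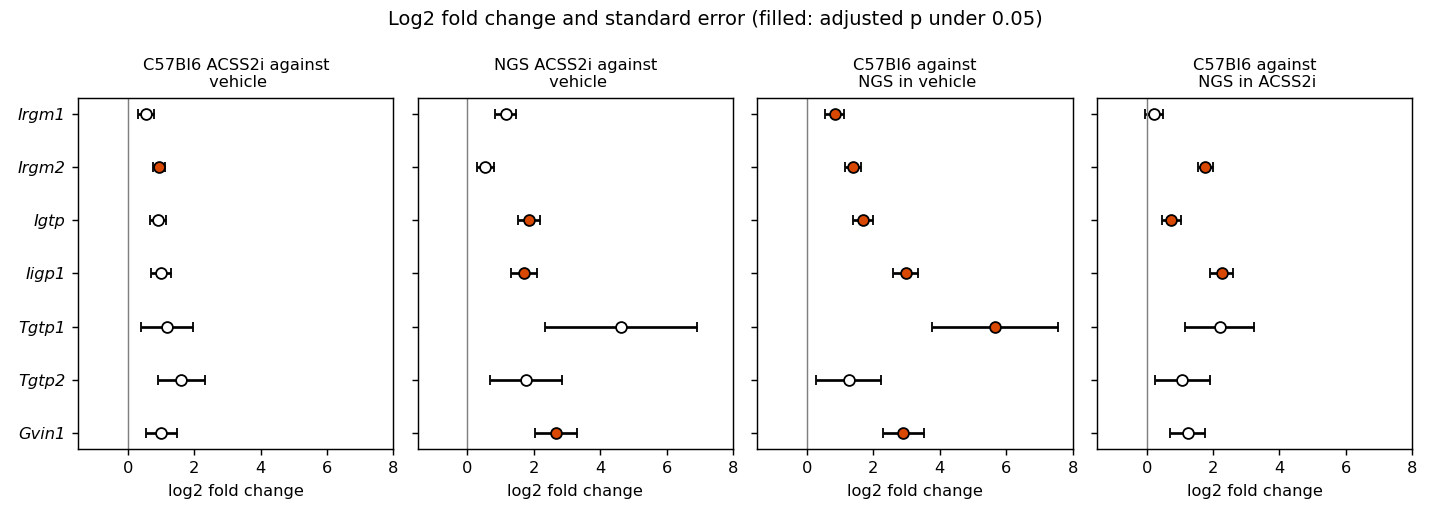
Log2 fold change (x axis) with its standard error for each of the 7 genes (y axis) in the 4 comparisons, from the edgeR model. Filled points had an adjusted p under 0.05. All points lie right of 0, and 1, 3, 6 and 3 are filled from left to right. The Tgtp1 values against NGS vehicle rest on 1 count there.

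The order of group means was not the same for all genes. C57BI6 ACSS2i had the highest mean and NGS vehicle the lowest for each of the 7. Between them, C57BI6 vehicle came ahead of NGS ACSS2i in Irgm2 (15.3 against 9.61 CPM), Iigp1 (132 against 62.7 CPM), Tgtp1 and Gvin1 (67.2 against 65.7 CPM), and behind it in Irgm1 (11.9 against 16.9 CPM), Igtp (37.8 against 48.6 CPM) and Tgtp2. These middle groups overlapped for all 7 genes. Neighbours in the order that stood apart were C57BI6 ACSS2i and C57BI6 vehicle in Irgm2 and Gvin1, C57BI6 vehicle and NGS vehicle in Igtp, and NGS ACSS2i and NGS vehicle in Iigp1 and Gvin1. The 7 genes summed to 58.4 ± 8.34 CPM (SD, n = 3) with vehicle and 215 ± 60.4 CPM with ACSS2i in NGS, and to 274 ± 111 CPM (SD, n = 4) with vehicle and 567 ± 87.8 CPM with ACSS2i in C57BI6.

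In C57BI6 the same libraries were often highest or lowest across the genes. C57BI6 vehicle replicate 1 was the highest vehicle library of its host in 5 of the 7, Irgm1, Irgm2, Igtp, Iigp1 and Tgtp2, and C57BI6 vehicle replicate 2 the lowest in 6. C57BI6 ACSS2i replicate 1 was the lowest treated library in 6 and C57BI6 ACSS2i replicate 2 the highest in 5. In NGS vehicle replicates 2 and 3 were each highest for 3 genes and lowest for 3. NGS ACSS2i replicate 3 was the highest treated library in 5 and replicate 1 the lowest in 4. C57BI6 vehicle replicate 1 also had the highest T cell marker sum (17.0 CPM) and muscle marker sum (765 CPM) of its group, and C57BI6 ACSS2i replicate 2 the highest T cell marker sum (56.5 CPM). The part of these markers in the ranks was not tested.

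The balance of regulators to effectors was set out by library. The summed counts of the GMS genes Irgm1, Irgm2 and Igtp, divided by those of the GKS genes Iigp1, Tgtp1 and Tgtp2, gave 1.28, 2.07 and 0.845 in NGS vehicle and 0.971, 1.25 and 0.858 in NGS ACSS2i. In C57BI6 the ratio was 0.379, 0.622, 0.496 and 0.493 in vehicle and 0.418, 0.423, 0.394 and 0.384 with ACSS2i. Every NGS library lay above every C57BI6 library, and within each host the treatments overlapped. The ratio of counts is not scaled by length and is compared here only between libraries, as a description. Iigp1 gave 85.4 to 93.3% of the summed counts of these GKS genes in each group, so the ratio rests mostly on that gene. Other IRG and GVIN genes were left out of both sums. Of these, 9930111J21Rik2 had means of 37.9 CPM in NGS vehicle and 96.4 CPM in C57BI6 vehicle, beside 18.7 and 132 CPM for Iigp1. The ratio therefore describes the genes chosen and not the whole family. The host difference of Iigp1 in vehicle was 2.97 on the log2 scale, beside 1.98 for the sum of Tgtp1 and Tgtp2 and 0.84 to 1.68 for the regulators. With ACSS2i it was 2.26, beside 1.39 for the Tgtp sum and 0.23 to 1.76 for the regulators, where Irgm2 lay above the Tgtp sum.

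**Figure D4:**
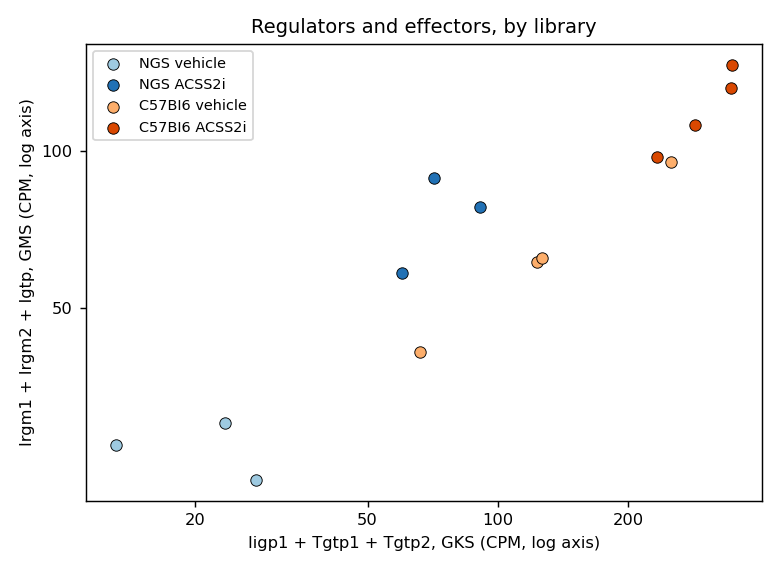
Summed level of the regulators Irgm1, Irgm2 and Igtp (y axis, CPM, log scale) against that of the effectors Iigp1, Tgtp1 and Tgtp2 (x axis, CPM, log scale), 1 point per library. NGS libraries have 0.845 to 2.07 regulator counts per effector count and C57BI6 libraries 0.379 to 0.622.

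Other IRG and GVIN genes were set beside the 7. Of 16 listed, 13 were in the table and 11 were tested. The list does not hold the whole family, and Ifi47, an IRG named below by likeness, was not on it. In C57BI6 1 of the 11 rose with ACSS2i, beside 0.26% of all genes. It was Gm8995, a transcribed pseudogene of the Gvin cluster, which went from 38.1 to 74.4 CPM (0.90 ± 0.16, edgeR adjusted p = 0.0277). In NGS 2 of the 11 rose, beside 1.32% of all genes. These were Gm4951, a predicted IRG, from 3.36 to 14.5 CPM (2.07 ± 0.36, edgeR adjusted p = 0.0127) and Gm5431, another, from 4.58 to 12.4 CPM (1.38 ± 0.33, adjusted p = 0.0413). None of the 11 fell, and the medians were 0.80 in C57BI6 and 0.77 in NGS. The DESeq2 test called 4 of the 11 in each host, and limma voom called 6 in C57BI6 and none in NGS. In vehicle 3 were higher and 1 lower in C57BI6 than in NGS, beside 18.8% and 14% of all genes, and with ACSS2i 5 higher and 1 lower, beside 23.1% and 17.2%. Gm12185, whose promoter held the paired motif, had means of 0.389 CPM with vehicle and 0.391 CPM with ACSS2i in NGS, and of 0.847 and 1.26 CPM in C57BI6. Its treatment differences did not pass (-0.02 ± 0.89 in NGS, adjusted p = 1, and 0.51 ± 0.45 in C57BI6, adjusted p = 0.894).

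The guanylate-binding proteins are interferon-inducible GTPases that act beside IRGs. In NGS 4 of the 8 tested rose with ACSS2i, beside 1.32% of all genes. They were Gbp3 (1.81 ± 0.28, edgeR adjusted p = 0.00746), Gbp5 (1.83 ± 0.35, 0.016), Gbp7 (1.14 ± 0.24, 0.0242) and Gbp2 (1.19 ± 0.25, 0.0243). The median over the 8 was 1.38. In NGS DESeq2 also called 4 and limma voom none. In C57BI6 none of the 8 passed in edgeR, while 6 had an unadjusted p under 0.05 (7.96% of all genes did), 4 passed with DESeq2 and 5 with limma voom, and the median was 0.89. Gbp2 was nearest, going from 52.0 to 102 CPM (0.91 ± 0.19, adjusted p = 0.067). Between hosts, all 8 were called higher in C57BI6 in vehicle, beside 18.8% of all genes, and 7 of 8 with ACSS2i, beside 23.1%. The medians over the 8 were 2.27 and 1.63.

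Among 7 interferon transcription factors, Stat2 (0.95 ± 0.17, edgeR adjusted p = 0.015) and Irf9 (0.64 ± 0.155, 0.0437), which act together in type I interferon signalling, rose in NGS, beside 1.32% of all genes. There DESeq2 called 3 of the 7 and limma voom none. All 7 had an unadjusted edgeR p under 0.05 in NGS, beside 22.1% of all genes. Of these, 6 were positive, and Ciita went down (-1.72 ± 0.69, edgeR adjusted p = 0.166). None of the 7 passed in C57BI6 with edgeR, where 4, beside 7.96% of all genes, had an unadjusted p under 0.05 and 3 passed with DESeq2 and with limma voom. Stat2 was at 26.4, 20.3 and 21.2 CPM in NGS vehicle and 34.4, 53.4 and 47.1 CPM in NGS ACSS2i. In C57BI6 it was at 38.7, 37.5, 42.8 and 48.5 CPM in vehicle and 61.1, 78.6, 72.0 and 66.7 CPM with ACSS2i (0.67 ± 0.135, adjusted p = 0.051). The treated libraries lay above the vehicle libraries in both hosts. Irf1, an interferon-induced activator, stood at 0.62 ± 0.19 in NGS (adjusted p = 0.0815) and 0.50 ± 0.16 in C57BI6 (0.299). None of 7 interferon receptor and kinase genes passed in either host with edgeR, DESeq2 or limma voom, though 4 of 7 in each host had an unadjusted p under 0.05, beside 22.1% of all genes in NGS and 7.96% in C57BI6, with medians of 0.29 in NGS and 0.28 in C57BI6.

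Of 5 genes that restrain interferon signalling, Usp18, a brake on the type I receptor, rose in NGS (2.20 ± 0.34, edgeR adjusted p = 0.00746), and Ptpn2, a phosphatase that dampens interferon signalling, fell (-0.48 ± 0.12, 0.0438). Of all genes 1.32% rose and 1.38% fell there, and DESeq2 called 2 of the 5 and limma voom none. None of the 5 passed in C57BI6 in edgeR, where Usp18 alone had an unadjusted p under 0.05 (0.89 ± 0.23, adjusted p = 0.157) and 1 passed with DESeq2 and 1 with limma voom. Of 13 genes of Atg8 conjugation and ubiquitin tagging, Atg3, the enzyme that attaches Atg8 proteins to lipid, fell in NGS (-0.51 ± 0.13, adjusted p = 0.0476). In NGS 4 of the 13 had an unadjusted edgeR p under 0.05, beside 22.1% of all genes, and DESeq2 called 3. With limma voom, or without the 3 muscle-rich C57BI6 libraries, none of the 13 passed in NGS. None of the 13 passed in C57BI6 in edgeR or limma voom, 1 had an unadjusted p under 0.05, a share near the 7.96% of all genes, and 1 passed with DESeq2. The medians of this list were 0.13 in NGS and -0.12 in C57BI6. In a fit of the NGS libraries alone, where 9 of all genes passed, no gene of these lists passed in NGS.

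**Figure D5:**
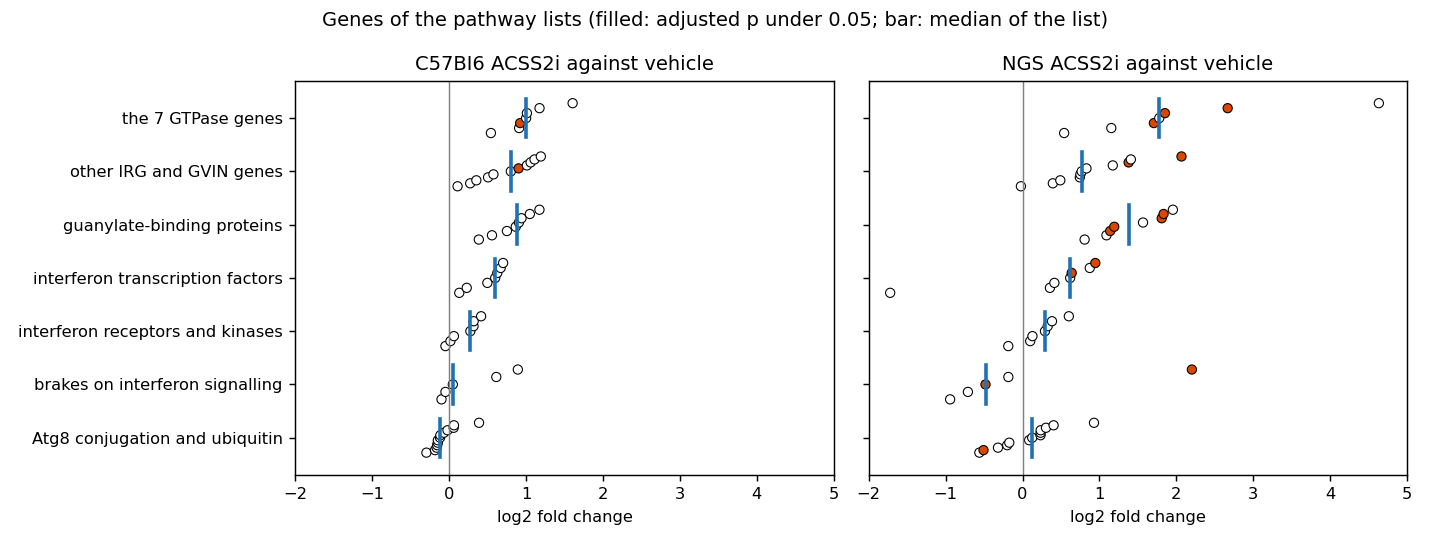
Log2 fold change with ACSS2i (x axis) of every tested gene in 7 lists (y axis) in C57BI6 (left) and NGS (right), 1 point per gene. Filled points had an edgeR adjusted p under 0.05 and bars mark list medians. The 7 GTPase genes have medians of 1.00 and 1.78, and the receptors and kinases 0.28 and 0.29.

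Interferon transcripts themselves were scarce, and none of the 6 ligand genes listed passed the filter on low counts. Ifng, interferon gamma, had no count in any of the 6 NGS libraries, which allows up to 0.226 CPM in the vehicle group and 0.289 CPM in the ACSS2i group, taking 3 counts over the group. In C57BI6 Ifng had 2, 0, 0 and 2 counts in vehicle and 9, 14, 4 and 12 with ACSS2i, so that all treated libraries stood above all vehicle libraries. Ifnb1 had at most 2 counts in any library, and the other 4 ligands, Ifna2, Ifna4, Ifnl2 and Ifnl3, had none. The NGS limits lie above the mean of Ifng in C57BI6 vehicle, 0.055 CPM, so a level like that one was not detectable at the NGS depth. The mean of Ifng in C57BI6 ACSS2i, 0.496 CPM, lies above both NGS limits, though the lowest library of that group, at 0.216 CPM, does not.

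Marker genes of immune cells were measured beside the GTPases. The 8 T cell markers summed to between 6.83 and 17.0 CPM in C57BI6 vehicle and between 25.3 and 56.5 CPM in C57BI6 ACSS2i, and the 8 NK and cytotoxic markers to between 11.4 and 17.9 CPM and between 34.6 and 69.5 CPM. Monocyte markers summed to between 32.4 and 67.5 CPM and between 103 and 200 CPM there, and macrophage markers to between 1558 and 2059 CPM and between 1946 and 2446 CPM. All 8 T cell, 8 NK, 8 macrophage and 3 monocyte genes had positive fold changes with ACSS2i in C57BI6 (47.3% of all genes did). There edgeR called 0, 2, 0 and 2 of them higher, beside 0.26% of all genes. An unadjusted edgeR p under 0.05 was found for 8, 6, 2 and 3, beside 7.96% of all genes. DESeq2 called 3, 6, 1 and 2 of them, and limma voom 6, 5, 1 and 2. Without the 3 muscle-rich C57BI6 libraries the edgeR calls were 0, 1, 0 and 2. With ACSS2i in NGS, 4, 1, 8 and 1 of them were positive (45.9% of all genes), where genes without any NGS count stood at 0. There edgeR called 0, 0, 0 and 1 higher, beside 1.32% of all genes, DESeq2 called 0, 1, 2 and 1, and limma voom none. In NGS the T cell sum was 2.77 to 3.09 CPM in vehicle and 1.74 to 4.59 CPM with ACSS2i, the NK sum 0.461 to 1.06 and 1.15 to 5.20 CPM, the monocyte sum 63.4 to 110 and 87.2 to 140 CPM, and the macrophage sum 1345 to 2339 and 2258 to 2850 CPM. Ly6c2, a monocyte surface protein named here after its values were seen, rose in NGS as well, from 6.59, 3.23 and 2.62 CPM to 15.2, 60.1 and 44.4 CPM (3.20 ± 0.46, edgeR adjusted p = 0.00552). That call was lost with limma voom and in a fit of the NGS libraries alone. The other monocyte genes, Plac8 (-0.19 ± 0.34, adjusted p = 0.795) and Ccr2 (-0.22 ± 0.34, 0.765), did not pass there. Of the 16 T cell and NK markers 6 had no count in any NGS library, Cd3e, Cd3g, Gzma, Gzmb, Ncr1 and Klrb1c. Klrk1, an activating receptor of NK and T cells also named after its values were seen, had 4, 0 and 0 counts in NGS vehicle and 4, 5 and 21 in NGS ACSS2i, groups that did not overlap in CPM (3.13 ± 0.89, adjusted p = 0.066). Klrk1 alone of the 8 NK and cytotoxic genes had a positive fold change in NGS. It gave all 30 counts of the NK sum in NGS ACSS2i. Muscle markers summed to between 208 and 5185 CPM in NGS vehicle and between 8.43 and 486 CPM in NGS ACSS2i. The part of lymphocytes, monocytes, macrophages and muscle in the differences was not tested.

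The genes most like each GTPase over the 14 libraries were found by the root mean square (RMS) difference of centred log2 CPM, among 12605 genes (12606 for Tgtp1) with a mean log2 CPM of at least 1. Igtp lay nearest to Ifi47, the IRG Irgd (RMS 0.255), Tap1, a peptide transporter (0.29), and Gbp3 (0.298). Irgm2 lay nearest to Psmb9, a subunit of the immunoproteasome (0.255), H2-D1, a class I histocompatibility chain (0.262), and AA467197 (0.291). Irgm1 lay nearest to Scimp (0.28), Trim25 (0.296) and Sass6 (0.306), and Iigp1 to Gm4951 (0.342), H2-K1 (0.344) and Clec7a (0.483). The median RMS over all genes compared was 1.05 for Igtp, 0.949 for Irgm2, 0.733 for Irgm1 and 1.54 for Iigp1. For Tgtp1, Tgtp2 and Gvin1, whose counts split between copies, no gene lay closer than 1.35. The libraries share host and depth, so these distances describe the whole pattern of the 4 groups.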

How the data were processed

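The authors deposited a table of whole-number counts per Ensembl gene, 1 column per library. Per the submitters' processing notes the build was mm10 and the tools were RSEM 1.2.3 and DESeq2, whose roles are not stated, so the counts may be rounded RSEM estimates; the aligner and read length are not given in the sources used here. Symbols and positions came from GENCODE on mm10, which matched 51596 of 51789 IDs. Counts were used as deposited: filtered by filterByExpr, scaled by TMM and tested with edgeR 4.0.16 (quasi-likelihood, two-sided, R 4.3.3) in 1 model of all 4 groups, with Benjamini-Hochberg adjustment over 17294 genes and a threshold of 0.05 (common biological coefficient of variation 0.236). Standard errors are the fold change divided by the square root of F. Libraries of the same group had a chi-square per degree of freedom of at least 6.62 between their counts, where sampling noise gives 1, so none were merged. No molecular identifiers are described, and printed intervals cover counting error alone. DESeq2 1.42.0 and limma 3.58.1 were alternatives. The method was tested on simulated data.

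The 7 genes and the lists were chosen with earlier results of these data known. All 7 are named, with up to 3 genes of smallest p per list, every gene a list has past the threshold where these are 5 or fewer, Ifng and Irf1, and the 3 nearest genes of each by likeness (prior count 2). A further gene of the lists is not reported here. The cell marker lists that are not printed with their values were those of B cells, at 0.691 to 2.56 CPM in sum, fibroblasts, at 3474 to 5244 CPM, and endothelial cells, at 98.8 to 194 CPM.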

Additional observations from a re-analysis of the deposited data

Results flagged for a closer look

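In groups of 4 libraries, 3 of 88 combinations of gene or marker sum and group held a library far from the others by Dixon's test, where chance gives about 1 in 20. Irf1 was at 187.2 CPM in C57BI6 ACSS2i replicate 2, the library that also ranked highest for 5 of the 7 GTPase genes. The muscle marker sum was 2184 CPM in C57BI6 ACSS2i replicate 3 and 765 CPM in C57BI6 vehicle replicate 1. None of the 7 GTPase genes had such a library in either C57BI6 group.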

How the results depend on the processing

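Of the 7 genes, 1 passed for treatment in C57BI6. The count was 3 with the DESeq2 test or limma voom, 2 with only the groups compared or without both NGS libraries numbered 1, 0 with C57BI6 thinned to the NGS depth or without the 3 muscle-rich C57BI6 libraries, and 0 to 3 with any 1 library left out. In NGS the count of 3 became 0 with limma voom or with only the groups compared, and 0 to 4 with any 1 library left out. The test of the difference between hosts gave 0 in every setting, 0 to 0 with 1 library left out. The host comparisons ranged from 4 to 6 in vehicle and from 2 to 4 with ACSS2i. No label says whether replicate numbers pair the libraries. In C57BI6 same-number correlations were -0.137 to 0.155, beside -0.268 to 0.349 for different numbers. In NGS they were -0.002 to 0.095, beside -0.124 to 0.081. So few libraries cannot settle whether they were paired. With the replicate block the counts were 0 in C57BI6 and 1 in NGS. Over all genes, the 54 calls in C57BI6 became 339 with the DESeq2 test, 429 with limma voom, 112 without the filter, 266 with only the groups compared, 9 with the block, 29 thinned, 21 without the muscle-rich libraries and 117 without the NGS libraries numbered 1. The 466 in NGS became 1574, 27, 486, 9, 254, 488, 120 and 1073 in the same order. The 3 for the difference became 283 with DESeq2, 0 with limma voom, 7 without the filter, 1 thinned, 1 without the muscle-rich libraries and 34 without the NGS libraries numbered 1, and the 6961 for host with ACSS2i became 3969 without the muscle-rich libraries. With 1 library left out, the all-gene counts ran from 15 to 122 in C57BI6, 118 to 1743 in NGS and 1 to 62 for the difference. The fits without the 3 muscle-rich C57BI6 libraries, without both NGS libraries numbered 1 and with Gvin1 and Gm4070 summed were not planned beforehand. The causes of these shifts were not tested. Tgtp1 rested on 1 count in NGS vehicle, where its near copy Tgtp2 had 34. The shared 3' ends leave the values of Tgtp1, Tgtp2 and Gvin1 taken alone uncertain in every library.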
